A study of Mus musculus with 14 samples.

Results

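The Sox transcription factors of embryonic mouse skin epithelium were described from 10 listed genes, Sox2, Sox4, Sox5, Sox6, Sox7, Sox9, Sox11, Sox12, Sox13 and Sox21, among the 26252 genes of the count table. The genes were matched to the table by their Ensembl identifiers, and all 10 passed the filter on low counts that left 15382 genes for testing. The embryos were wild type (C57BL/6JOlaHsd) and had reached E14.5, the embryonic day at which the first hair placodes have formed, and no treatment is labelled. Epithelium of their back skin was dissociated for the sort. Cells were sorted with an antibody against MAdCAM-1, an adhesion molecule on the surface of hair placode cells. The positive cells gave 7 placode-enriched libraries, and the negative cells, which stand for the interfollicular epithelium (IFE), gave 7 libraries. Each library pooled the epithelium of 3 to 4 littermate embryos, and both fractions of a pool form a pair. A positive sort enriches placode cells without isolating them, and the negative fraction holds every other live cell of the sheet.

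Sox proteins bind the minor groove of DNA through a high mobility group (HMG) box like that of the sex-determining factor Sry, and they bend the DNA at the site. They are grouped by their sequence: Sox2 belongs to group B1 and Sox21 to group B2, Sox4, Sox11 and Sox12 form group C, Sox5, Sox6 and Sox13 form group D, Sox9 belongs to group E and Sox7 to group F. Members of group D have no activation domain of their own and pair through a coiled coil. In mouse skin, Sox9 is known for the specification of early hair follicle stem cells, Sox2 for the dermal papilla and Merkel cells, and Sox21 for the cuticle of the hair shaft.

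The comparison of both fractions asked which Sox genes distinguish the early hair follicle from the epidermis around it. Of the 10 genes, 7 were higher in placode-enriched cells (Sox2, Sox4, Sox7, Sox9, Sox11, Sox13 and Sox21), 2 were lower (Sox5 and Sox6), and Sox12 did not pass the test. Among all genes tested, 15.5% were called higher and 15.6% lower, 31.1% together, at an adjusted p under 0.05. The test was edgeR's quasi-likelihood F test, and each pair was a block. The median log2 fold change of placode-enriched over IFE was 1.45 over the 10 genes and -0.02 over all genes tested. All 7 higher genes were at least 2-fold higher, as were 5.71% of all genes tested, and in these 7 the lowest placode-enriched library exceeded the highest IFE library, as in 7.46% of all genes tested. Of the lower genes, Sox5 passed a 2-fold change, as did 4.9% of all genes tested, and Sox6 did not. None of the 10 genes had its fractions apart in the lower direction, as 7.29% of all genes tested did. In bulk RNA of sorted cells, fewer cells of a type and less RNA per cell cannot be told apart.

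**Figure D1:**
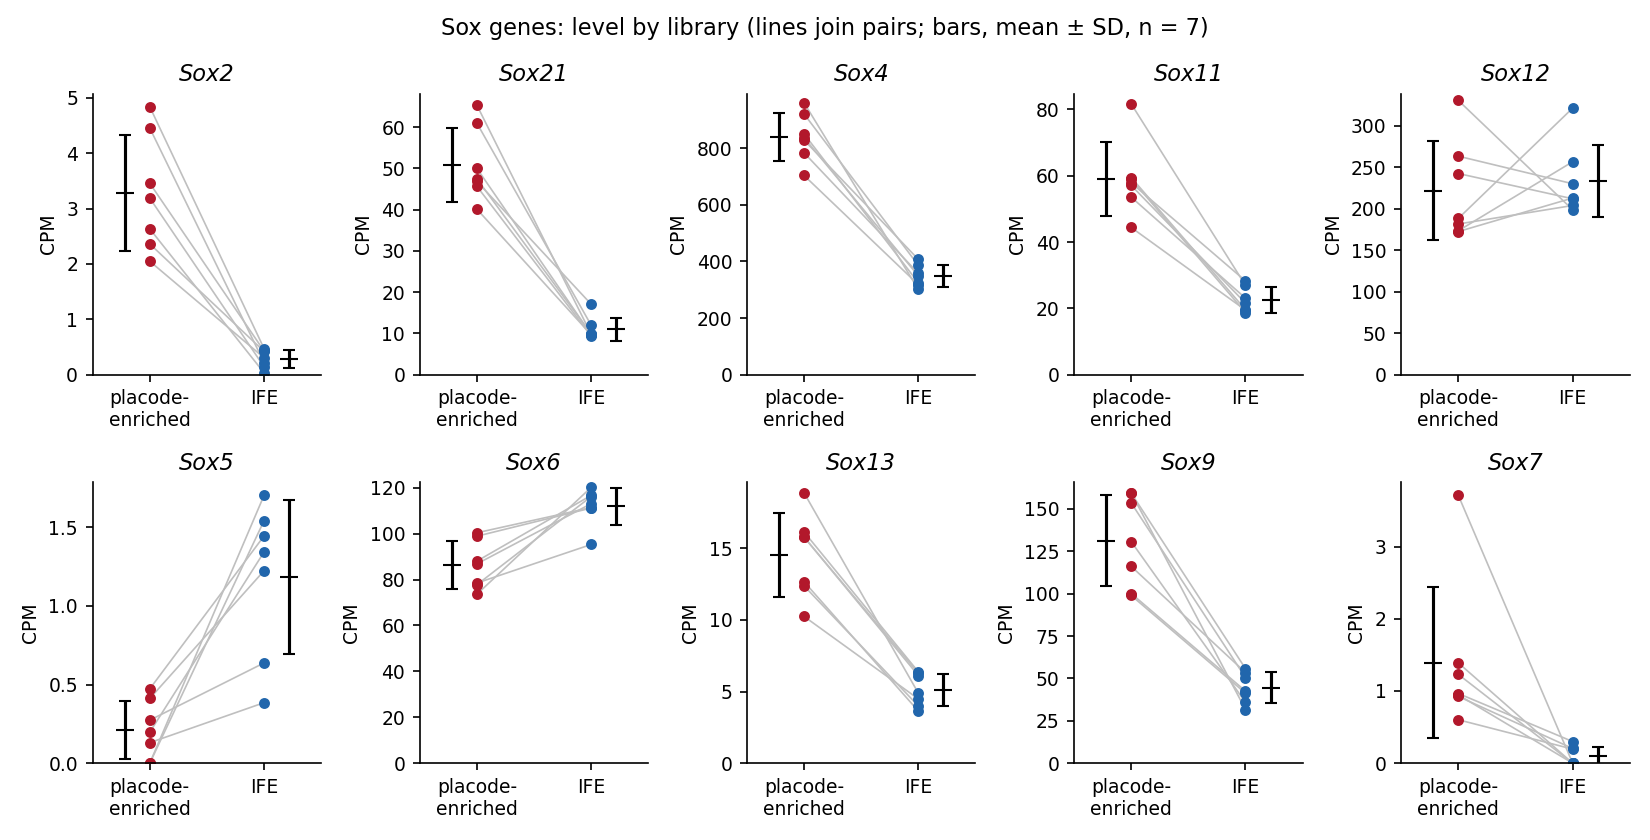
CPM (vertical axes, from 0) of 10 Sox genes in placode-enriched (red) and IFE (blue) libraries. Grey lines join the fractions of a pair and black bars give mean ± SD (n = 7 each). The red points lie above all blue points for Sox2, Sox21, Sox4, Sox11, Sox13, Sox9 and Sox7, mix with them for Sox12, and lie mostly below them for Sox5 and Sox6.

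Levels are given as CPM, read counts scaled to equal library size. Library totals lay between 23.8 and 49.5 mega counts. Madcam1, the gene of the sorted surface protein, stood at 36.5 to 66.6 CPM in placode-enriched libraries, against 0.171 to 1.23 CPM in IFE libraries, so each library went with its label. The 6 epithelial markers were well above 0 in both fractions, with sums of 5085 to 6224 CPM in placode-enriched libraries, against 5998 to 7403 CPM in IFE libraries, and the sum was lower in placode-enriched cells in 7 of 7 pairs. Of these markers, 3 were higher (Epcam, Trp63 and Krt14) and 3 lower (Perp at -1.35, Cdh1 at -0.86 and Krt5 at -0.54 on the log2 scale). All 10 listed placode markers were higher in placode-enriched cells, all 10 suprabasal markers were lower, and 8 basal markers were split (4 higher, 3 lower, 1 not passing). The placode list includes Madcam1, whose protein was used for the sort, so its rise supports nothing further. Among all genes tested, 15.5% were called higher and 15.6% lower. Of 8 tested dermal fibroblast markers 4 were higher, 1 lower and 3 did not pass. The list summed to 1139 to 1933 CPM in placode-enriched libraries, against 938 to 1276 CPM in IFE libraries. Most of this was Postn, with means of 1042 and 745 CPM in the same order, and Dcn, with 498 and 258 CPM. The 1 lower marker and the 3 that did not pass were low, with means between 0.413 and 4.8 CPM in either fraction. Mitochondrial genes held 5.13% to 7.502% of the counts in placode-enriched and 5.87% to 7.93% in IFE libraries.

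Promoters are shown for the 5 genes of groups B and C, each of which had 1 promoter in the table. Sox4 and Sox11 rose while Sox12 of the same group did not pass, and Sox2 and Sox21 of group B both rose. The sequences are the 250 bases before the transcription start in RefSeq (GRCm38.p6), written 5′ to 3′ on the gene's strand. RefSeq starts can differ from the gene starts given further on, which come from GENCODE. Capitals mark CCAAT or its reverse complement ATTGG, the letters of the CCAAT box bound by NF-Y.
Sox4, chr13:28953700-28953949, minus strand: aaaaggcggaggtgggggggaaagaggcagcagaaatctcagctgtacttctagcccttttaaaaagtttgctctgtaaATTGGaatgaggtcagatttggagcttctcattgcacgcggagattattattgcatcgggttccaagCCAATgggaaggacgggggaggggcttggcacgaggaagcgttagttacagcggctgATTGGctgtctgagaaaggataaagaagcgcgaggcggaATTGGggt
Sox11, chr12:27342719-27342968, minus strand: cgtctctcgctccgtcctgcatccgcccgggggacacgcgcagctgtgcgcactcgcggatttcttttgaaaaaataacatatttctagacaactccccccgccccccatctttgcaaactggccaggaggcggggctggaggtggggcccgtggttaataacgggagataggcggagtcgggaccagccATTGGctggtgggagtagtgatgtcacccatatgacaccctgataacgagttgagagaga
Sox12, chr2:152398047-152398296, minus strand: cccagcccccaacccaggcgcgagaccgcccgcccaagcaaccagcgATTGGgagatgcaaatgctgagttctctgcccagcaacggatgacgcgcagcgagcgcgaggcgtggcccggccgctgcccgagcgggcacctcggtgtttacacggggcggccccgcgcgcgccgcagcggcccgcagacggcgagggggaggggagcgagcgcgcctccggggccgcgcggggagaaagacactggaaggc
Sox2, chr3:34649745-34649994, plus strand: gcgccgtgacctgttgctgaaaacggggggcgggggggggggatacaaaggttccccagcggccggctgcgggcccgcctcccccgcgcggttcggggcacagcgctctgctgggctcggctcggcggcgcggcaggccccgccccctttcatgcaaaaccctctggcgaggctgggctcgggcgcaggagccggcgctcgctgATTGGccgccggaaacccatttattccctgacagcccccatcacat
Sox21, chr14:118237031-118237280, minus strand: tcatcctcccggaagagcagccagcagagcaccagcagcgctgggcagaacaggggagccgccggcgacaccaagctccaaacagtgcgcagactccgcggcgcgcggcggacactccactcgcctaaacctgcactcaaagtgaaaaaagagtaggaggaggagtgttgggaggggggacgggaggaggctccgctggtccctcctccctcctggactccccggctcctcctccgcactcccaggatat

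Sox4 held 4 CCAAT matches in this window, and Sox11, Sox12 and Sox2 held 1 each. The match nearest to the start ended 3 bases before it in Sox4, 55 in Sox11, 198 in Sox12 and 41 in Sox2. Sox21 held none. At least 1 match was present in 33.8% of 32851 RefSeq promoters cut to the same window, and at least 4 in 0.84%. The letters ACAAT (or ATTGT), a form of the core that Sox proteins bind, were in 27.7% of all promoters and in none of the 5 shown, but in the promoter listed for Sox5 and in 3 of the 6 listed for Sox6. Other forms of that core were not searched, and the Sox2 window holds the letters ACAAAG. The TATA box letters TATAAA, the Lef/Tcf letters CTTTGAA and the Gli letters TGGGTGGTC, each searched on both strands, were in none of the 5 either. They were in 12.4%, 4.46% and 0.225% of all promoters. Other forms of these letters were not searched. The Sox2 window holds TACAAAG, the reverse complement of CTTTGTA, which differs from the Lef/Tcf letters searched in 1 base. GC boxes (GGGCGG, both strands) were in Sox2, Sox11 and Sox12 but in neither Sox4 nor Sox21, and in 32.7% of all promoters. The G and C content was 50.8% in Sox4, 58.0% in Sox11, 74.4% in Sox12, 72.0% in Sox2 and 65.2% in Sox21, with a median of 52.4% over all promoters. In the windows shown no CCAAT match overlaps a GC box, while 2 of the 3 GC boxes of Sox12 overlap each other. A match describes letters, not binding. Of the 10 genes, 8 were matched to 13 promoters, 6 of them of Sox6, and no promoter of Sox7 or Sox9 was used here.

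Both group B genes were higher in placode-enriched cells. Sox2, an activator known from pluripotent and neural progenitor cells (ENSMUSG00000074637; GRCm38 chromosome 3, 34650405 to 34652461, plus strand, 1 exon), ranged from 2.05 to 4.84 CPM with a median of 3.19 CPM in placode-enriched libraries, against 0.0335 to 0.473 CPM with a median of 0.305 CPM in IFE libraries. These levels rest on 71 to 153 reads per placode-enriched library and 1 to 17 reads per IFE library. The fractions did not overlap, and the means were 3.28 ± 1.05 CPM in placode-enriched libraries, against 0.289 ± 0.164 CPM in IFE libraries (SD, 7 libraries each). The log2 fold change was 3.58 with an approximate SE of 0.41 (adjusted p = 1.6e-05 by edgeR; higher in 7 of 7 pairs), and SEs below are of the same kind. Sox2 and Sox7 passed the filter on low counts only through the placode-enriched fraction, and Sox5 only through the IFE fraction. Genes that pass in this way had to differ, so the count of 7 higher and 2 lower genes and its median describe these genes and support nothing further.

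Sox21, which in the neural tube counteracts the B1 proteins (ENSMUSG00000061517; chromosome 14, 118233232 to 118237030, minus strand, 1 exon), ranged from 40.1 to 65.3 CPM (median 47.5 CPM) in placode-enriched and from 9.37 to 17.1 CPM (median 9.80 CPM) in IFE libraries. Even the highest IFE library, that of pair 7, stayed well below the lowest placode-enriched one. It averaged 50.9 ± 8.97 CPM in placode-enriched libraries, against 11.1 ± 2.79 CPM in IFE libraries (SD, 7 libraries each). Its log2 fold change was 2.21 ± 0.13 (edgeR adjusted p = 3.08e-08; 7 of 7 pairs). In 6 of 7 pairs the difference of Sox21 was larger than those of Sox4, Sox9, Sox11 and Sox13. Within pairs, the log2 difference of Sox2 exceeded that of Sox21 by 1.19 ± 0.79 (SD, n = 7 pairs). This is a description, since Sox2 had to differ to be among the genes tested.

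Markers of cells known for Sox2 moved with it in part. Of 8 Merkel cell markers, 3 were tested, of which Krt18 (log2 fold change 1.84) and Krt8 (2.34 CPM in placode-enriched libraries, against 0.924 CPM in IFE libraries on average), both simple-epithelium keratins, rose and the mechanosensitive channel gene Piezo2 fell (-0.58). Their summed level with the 5 untested markers was 17.5 to 20.3 CPM in placode-enriched libraries, against 10.4 to 16.1 CPM in IFE libraries. Atoh1, the transcription factor that defines Merkel cells, was not tested. It had 237 reads in all placode-enriched libraries together (1 to 55 per library) and 10 in all IFE libraries (0 to 8 per library). The later Merkel cell keratin Krt20 was near 0, with 14 and 8 reads in the placode-enriched and IFE libraries together. In the same order, the other untested markers had 82 and 25 (Pou4f3), 68 and 10 (Insm1) and 50 and 6 reads (Isl1). Of 12 markers of the dermal condensate and papilla, 10 were matched and 6 tested, with 3 higher, 1 lower and 2 not passing. Their sum was 36.1 to 49.5 CPM in placode-enriched libraries, against 11.6 to 14.1 CPM in IFE libraries, of which the chemokine receptor gene Cxcr4 made up 29.8 and 2.68 CPM on average. Sox18, which also marks the dermal papilla, had 13 reads in all placode-enriched and 32 in all IFE libraries. The part of such cells in the Sox2 difference was not tested.

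**Figure D2:**
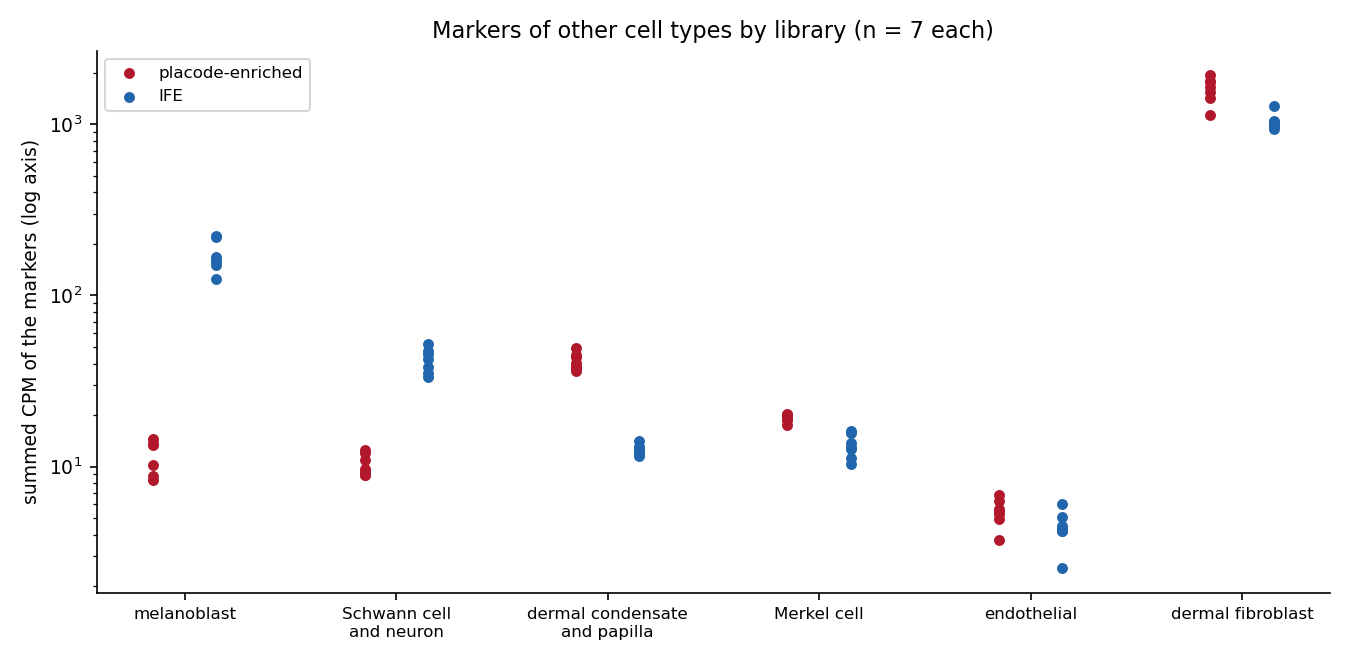
Summed CPM (log axis) of the listed markers of 6 other cell types in placode-enriched (red) and IFE (blue) libraries, 1 point per library, n = 7 each. Melanoblast sums lie at 8.31 to 14.6 CPM against 124 to 222 CPM, and dermal condensate sums lie higher in placode-enriched libraries.

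Of the group C genes, Sox4 and Sox11 were higher and Sox12 did not pass. These activators are widely made by embryonic progenitor cells and overlap in function in mouse development. Sox4 (ENSMUSG00000076431; chromosome 13, 28948919 to 28953713, minus strand, 1 exon) ranged from 704 to 960 CPM (median 837.0 CPM) in placode-enriched and from 301 to 407 CPM (median 349.0 CPM) in IFE libraries. The gap between the fractions exceeded the range within either. It averaged 841 ± 84.7 CPM in placode-enriched libraries, against 349 ± 38.1 CPM in IFE libraries (SD, 7 libraries each). Its log2 fold change was 1.27 ± 0.08 (edgeR adjusted p = 6.62e-08; 7 of 7 pairs).

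Sox11 (ENSMUSG00000063632; chromosome 12, 27334264 to 27342574, minus strand, 1 exon) ranged from 44.4 to 81.6 CPM (median 57.8 CPM) in placode-enriched and from 18.7 to 28.3 CPM (median 21.6 CPM) in IFE libraries. Again no library of either fraction lay within the range of the other. It averaged 58.99 ± 11.3 CPM in placode-enriched libraries, against 22.5 ± 3.78 CPM in IFE libraries (SD, 7 libraries each). Its log2 fold change was 1.38 ± 0.09 (edgeR adjusted p = 1.18e-07; 7 of 7 pairs). Sox12 (ENSMUSG00000051817; chromosome 2, 152393611 to 152398063, minus strand, 1 exon in its longest transcript) ranged from 172 to 330.3 CPM (median 188 CPM) in placode-enriched and from 199 to 321 CPM (median 213 CPM) in IFE libraries. Both fractions covered nearly the same range, with 3 pairs higher and 4 lower. It averaged 222 ± 59.8 CPM in placode-enriched libraries, against 234 ± 43.2 CPM in IFE libraries, and the log2 fold change of -0.10 ± 0.15 did not pass (edgeR adjusted p = 0.674).

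Within pairs, the log2 differences of Sox4 and Sox11 were 1.37 ± 0.32 and 1.48 ± 0.58 larger than that of Sox12 (SD, n = 7 pairs; exact two-sided sign-flip p = 0.0156 and adjusted p = 0.0182 each; 7 of 7 pairs). That p is the smallest 7 pairs can give, and the adjustment covers 7 contrasts computed between Sox genes of one group. These include the contrasts of Sox2 and Sox5, genes that had to differ to be tested. Their p-values make the adjusted p of the other contrasts smaller than it would be without them. Sox4 and Sox11 were not told apart, with a mean difference of -0.11 ± 0.31 between them (exact sign-flip p = 0.422; Sox4 larger in 3 pairs and Sox11 in 4). Of the 4795 bases of the Sox4 exon, 2616 lie under exons of the lincRNA Gm26735 on the opposite strand. Since the strand setting of the counting is not given, reads of that stretch could have been dropped or split. Gm26735 itself averaged 1.57 CPM in placode-enriched libraries, against 0.818 CPM in IFE libraries. Gm4675, which overlaps 713 bases of Sox21 on the opposite strand, averaged 1.74 and 0.873 CPM in the same order.

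The group D genes went in both directions. Sox13, which modulates Wnt signalling through Tcf proteins (ENSMUSG00000070643; chromosome 1, 133382303 to 133424377, minus strand, 14 exons in its longest transcript), ranged from 10.2 to 18.9 CPM (median 15.8 CPM) in placode-enriched and from 3.64 to 6.38 CPM (median 4.89 CPM) in IFE libraries. The fractions did not overlap, with means of 14.54 ± 2.92 CPM in placode-enriched libraries, against 5.11 ± 1.145 CPM in IFE libraries. The log2 fold change was 1.51 ± 0.13 (edgeR adjusted p = 1.29e-06; 7 of 7 pairs). Sox6, a partner of Sox5 in cartilage and a repressor of embryonic globin genes (ENSMUSG00000051910; chromosome 7, 115470872 to 116038796, minus strand, 16 exons), ranged from 73.6 to 100.4 CPM (median 86.9 CPM) in placode-enriched and from 95.3 to 120.2 CPM (median 113 CPM) in IFE libraries. The ranges overlapped through the IFE library of pair 1, the lowest of its fraction. It averaged 86.3 ± 10.5 CPM in placode-enriched libraries, against 112 ± 8.04 CPM in IFE libraries, and the log2 fold change was -0.38 ± 0.08 (edgeR adjusted p = 0.00238; lower in 7 of 7 pairs).

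Sox5 (ENSMUSG00000041540; chromosome 6, 143828425 to 144781977, minus strand, 15 exons in its longest transcript) is, besides its role in cartilage, known as a modulator of Sox10 in mouse melanocytes. It was near the lower end of what the libraries could measure, with 0 to 16 reads per placode-enriched library (0 in 2 of them) and 14 to 67 reads per IFE library. The levels were 0 to 0.472 CPM with a median of 0.197 CPM in placode-enriched libraries, against 0.384 to 1.70 CPM with a median of 1.34 CPM in IFE libraries. The ranges overlapped, although every pair was lower in its placode-enriched library. The means were 0.212 ± 0.186 CPM in placode-enriched libraries, against 1.18 ± 0.488 CPM in IFE libraries, and the log2 fold change was -2.59 ± 0.74 (edgeR adjusted p = 0.0159). Of the 50-base stretches of its transcripts, 8.98% also occur in other genes, among them the antisense gene Sox5os1, which had 5 reads in all libraries together.

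Markers of melanoblasts, the pigment cell precursors, moved with Sox5. All 8 tested of 9 markers were lower in placode-enriched cells, and their sum was 8.31 to 14.6 CPM in placode-enriched libraries, against 124 to 222 CPM in IFE libraries. Sox10, a group E factor of neural crest derivatives and 1 of these markers, averaged 4.404 ± 1.63 CPM in placode-enriched libraries, against 30.1 ± 7.10 CPM in IFE libraries (log2 fold change -2.81 ± 0.23; edgeR adjusted p = 8.46e-07; lower in 7 of 7 pairs). Pax3, a partner of Sox10 in melanoblasts, averaged 0.442 and 9.997 CPM in the same order. Schwann cell and neuron markers fell in 3, rose in 1 and did not pass in 2 of 6 tested (Sox10 is on this list too), with sums of 8.98 to 12.5 CPM in placode-enriched libraries, against 33.3 to 51.9 CPM in IFE libraries. The part of such cells in the Sox5 difference was not tested. Taken within pairs, the log2 difference of Sox6 minus that of Sox13 was -1.89 ± 0.27 (SD, n = 7 pairs; exact sign-flip p = 0.0156, adjusted p = 0.0182 over the same 7 contrasts as above; 7 of 7 pairs). Sox5 minus Sox6 gave -2.09 ± 1.74 and Sox5 minus Sox13 gave -3.97 ± 1.66, a description, since Sox5 had to differ to be among the genes tested.

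Sox9 (ENSMUSG00000000567; chromosome 11, 112782224 to 112787760, plus strand, 3 exons) ranged from 98.96 to 159.5 CPM (median 131 CPM) in placode-enriched and from 31.7 to 55.8 CPM (median 42.5 CPM) in IFE libraries. All placode-enriched libraries lay above all IFE libraries. It averaged 131 ± 26.8 CPM in placode-enriched libraries, against 44.5 ± 9.10 CPM in IFE libraries (SD, 7 libraries each). Its log2 fold change was 1.56 ± 0.13 (edgeR adjusted p = 7.67e-07), and the pair differences ranged from 1.12 to 2.33.

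Genes placed around Sox9 in the follicle were higher with it. Of 15 Hedgehog and Wnt genes, 13 were higher and 2 did not pass (Axin2 at -0.16 and Sufu at 0.13), with a median log2 fold change of 1.35. Over all genes tested, 15.5% were called higher and 15.6% lower. Shh, the Hedgehog ligand, averaged 105 ± 23.4 CPM in placode-enriched libraries, against 2.02 ± 0.768 CPM in IFE libraries (log2 fold change 5.74). Dkk4, a secreted Wnt inhibitor, rose by 3.16, and the Hedgehog receptor gene Ptch1 rose by 1.59. Of 16 tested regulators of the early follicle and its stem cells, 9 were higher, 2 lower and 5 did not pass (median 0.82). Trps1 (3.54), Foxi3 (3.35) and Runx1 (2.80), all transcription factors, and the receptor gene Lgr6 (2.45) were among the higher ones, and Hopx (-1.75) and Vdr (-1.20) were the lower ones.

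Of 16 listed cartilage targets of Sox9, Sox5 and Sox6, 14 were matched and 6 tested, and Col27a1, a fibrillar collagen gene, was the only tested member to pass (106.5 ± 34.0 CPM in placode-enriched libraries, against 45.3 ± 8.83 CPM in IFE libraries; log2 fold change 1.20). Col2a1, the classic cartilage target, averaged 0.462 and 0.288 CPM in the same order and did not pass. The summed level of the list, of which Col27a1 was the largest part, was 70.6 to 172.5 CPM in placode-enriched libraries, against 42.3 to 67.0 CPM in IFE libraries, and was higher in 7 of 7 pairs.

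Sox7, which acts with Sox17 and Sox18 in endothelium (ENSMUSG00000063060; chromosome 14, 63943673 to 63950732, plus strand, 2 exons), was low throughout. It had 19 to 114 reads per placode-enriched library and 0 to 8 per IFE library, with 0 in 4 of 7 IFE libraries. The levels were 0.601 to 3.71 CPM (median 0.965 CPM) in placode-enriched and 0 to 0.300 CPM (median 0 CPM) in IFE libraries. The fractions did not overlap, and pair 5 held the highest placode-enriched value by far. The means were 1.39 ± 1.05 CPM in placode-enriched libraries, against 0.0996 ± 0.129 CPM in IFE libraries. The log2 fold change was 4.00 ± 0.95 (edgeR adjusted p = 0.00524; higher in 7 of 7 pairs), with the widest error of the 10 genes. Endothelial markers had a summed level of 3.74 to 6.85 CPM in placode-enriched libraries, against 2.55 to 6.06 CPM in IFE libraries. Of the 2 tested of 10, the adhesion gene Pecam1 rose (log2 2.15; 1.83 and 0.493 CPM) and Egfl7 did not pass. Among the untested markers, the defining endothelial gene Cdh5 had 4 reads in all placode-enriched libraries and 0 in all IFE libraries. In the same order, Tek had 101 and 62 reads, Kdr 49 and 4 (at most 41 in any library), Tie1 19 and 6, and Sox17 12 and 1. Sox18 went the other way, with 13 and 32 reads. The part of endothelial cells in the Sox7 difference was not tested.

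**Figure D3:**
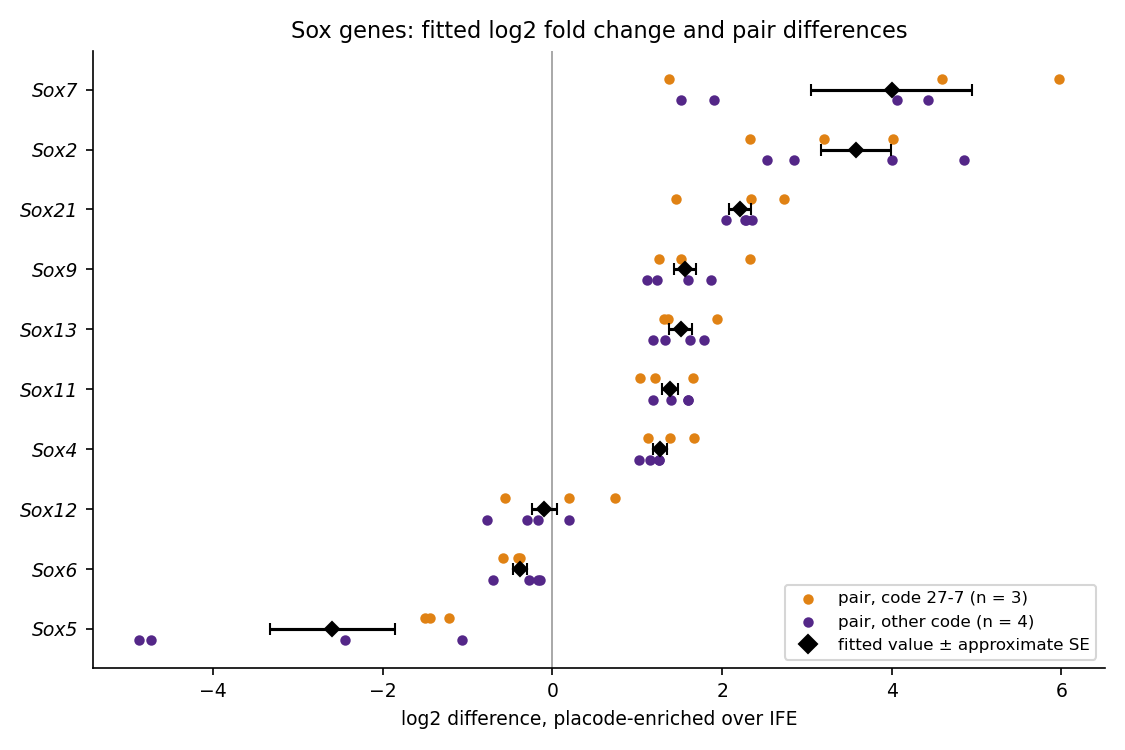
Log2 differences of 10 Sox genes between placode-enriched and IFE libraries (horizontal axis). Diamonds give the fitted value ± approximate SE, and points give the 7 pairs, orange for the 3 pairs whose title code starts with 27-7 and purple for the 4 others. Sox2 and Sox7 spread most among the higher genes, and Sox5 spreads from -4.87 to -1.06.

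The labels give codes to the pairs, and 3 of these start with 27-7. Fitted in these 3 pairs alone and in the 4 others alone, the log2 fold changes were 1.40 and 1.17 for Sox4, 1.30 and 1.45 for Sox11, 1.70 and 1.45 for Sox9, 1.55 and 1.48 for Sox13, 2.18 and 2.24 for Sox21, and 3.36 and 3.80 for Sox2. Each of these passed in both sets (edgeR adjusted p of 0.00409 or less). Sox7 stood at 4.82 in the 27-7 pairs (edgeR adjusted p = 0.0666) and 3.51 in the others (0.0429), Sox5 at -1.57 (0.159) and -3.73 (0.0383), and Sox6 at -0.45 (0.0295) and -0.33 (0.0748). Sox12 changed sign between them, with 0.13 in the 27-7 pairs and -0.26 in the others, and passed in neither. For Sox2, Sox5 and Sox7 these values are a description, since these genes had to differ to be among the genes tested. The differences between both sets of pairs were not tested.

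Set per length, Sox4 had the highest level of the 10 genes in both fractions. The level per kilobase (kb) of exon, the CPM divided by the union of a gene's exons, was 175 ± 17.7 CPM per kb for Sox4 in placode-enriched and 72.8 ± 7.95 CPM per kb in IFE libraries (SD, n = 7 each). Sox12 followed with 49.8 ± 13.4 and 52.5 ± 9.70, and Sox9 with 31.7 ± 6.49 and 10.8 ± 2.20 CPM per kb, in the same order. In placode-enriched libraries the order then went on with Sox21 (13.4), Sox11 (7.10), Sox6 (5.82), Sox13 (3.37), Sox2 (1.60), Sox7 (0.423) and Sox5 (0.0147 CPM per kb). Neighbours in this order had separate ranges except Sox11 with Sox6 and Sox2 with Sox7. In IFE libraries Sox6 (7.55) stood next after Sox9, ahead of Sox21 (2.91), Sox11 (2.71), Sox13 (1.19), Sox2 (0.140), Sox5 (0.0822) and Sox7 (0.0302 CPM per kb). There the ranges overlapped between Sox4 and Sox12, Sox9 and Sox6, Sox21 and Sox11, Sox2 and Sox5, and Sox5 and Sox7.

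**Figure D4:**
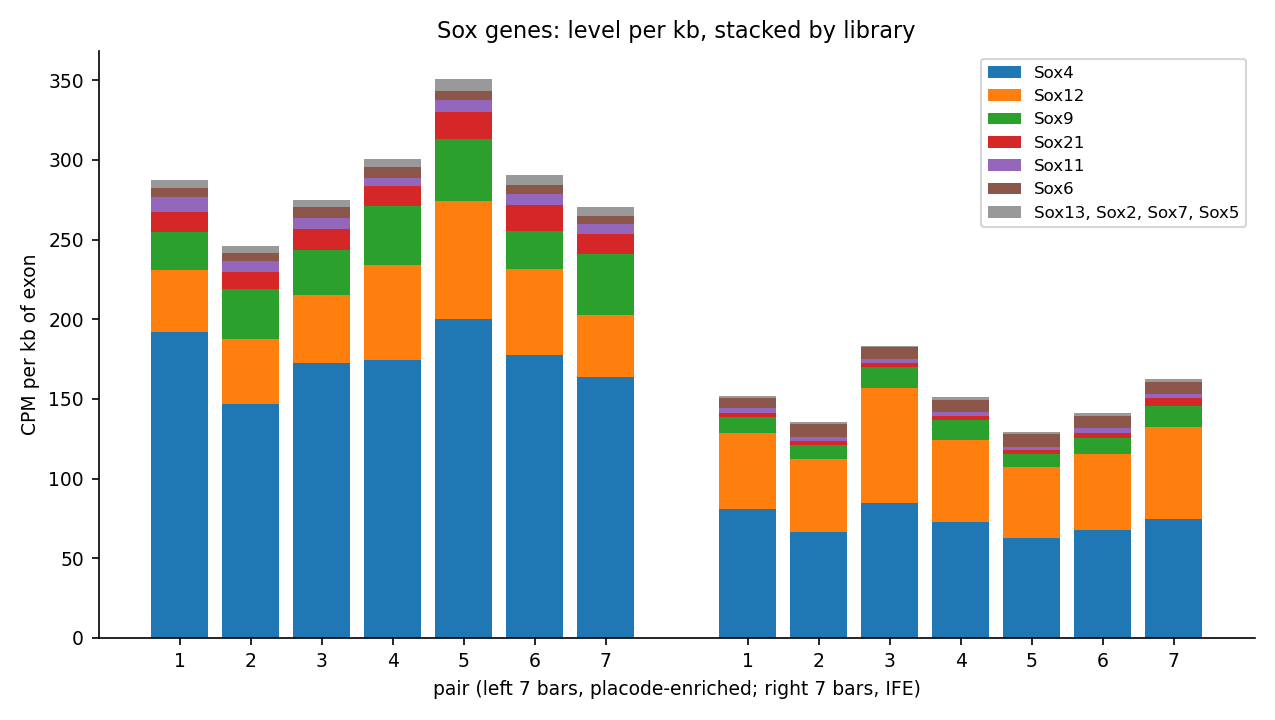
Level per kb of exon of 10 Sox genes, stacked, in the 7 placode-enriched (left) and 7 IFE (right) libraries, numbered by pair. The stacks average 289 and 151 CPM per kb, and Sox4 (blue) is the largest part of each.

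The sum of the 10 genes was 289 ± 32.7 CPM per kb in placode-enriched and 151 ± 18.3 CPM per kb in IFE libraries. Sox4 took 60.9% ± 3.27 of this sum in placode-enriched and 48.4% ± 2.32 in IFE libraries. The share of Sox12 was 17.1% ± 2.86 and 34.7% ± 2.40, and that of Sox9 was 11.1% ± 2.26 and 7.09% ± 0.853, in the same order (SD, n = 7 each). Shares of one sum depend on each other, and the shares of Sox4 and Sox12 did not overlap between the fractions. The full exon length was used for Sox4 and Sox21, although exons of Gm26735 and Gm4675 lie opposite part of each. If reads there were dropped in counting, the levels per kb of both genes, the sum and every share would be affected. This was not tested. Sox5 and Sox6 have many transcripts, and with the longest transcript as the length their levels were higher, at 0.0293 and 9.96 CPM per kb in placode-enriched and 0.163 and 12.9 CPM per kb in IFE libraries. With that length the order changed: Sox6 stood above Sox11 in placode-enriched libraries and above Sox9 in IFE libraries, and Sox5 stood above Sox2 in IFE libraries.

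The lists of targets and partners of Sox proteins held members in both directions. The counts below stand beside 15.5% higher and 15.6% lower, 31.1% together, among all genes tested. Of 11 tested genes known as targets or partners of group C proteins, 5 were higher, 3 lower and 3 did not pass (median 0.27). The actin-binding protein gene Dbn1 (1.24), the microtubule protein gene Map2 (2.42) and Tead2 (0.92), a transcription factor gene targeted by Sox11 in the mouse, rose. Vim (-1.17), the intermediate filament gene, Marcks (-0.77) and the neuronal tubulin gene Tubb3 (-3.46) fell. Of 17 cofactors of groups D and E, 6 were higher, 1 lower and 10 did not pass (median 0.15), and the mediator subunit gene Med12 (0.31) and the acetyltransferase gene Ep300 (0.24) were the first of these by p. Of 4 tested POU and PAX partners, the POU factor gene Pou3f1 rose (1.48), Pou2f3 (-1.21) and Pax3 (-4.60) fell and Pou2f1 did not pass (median -0.55).

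**Figure D5:**
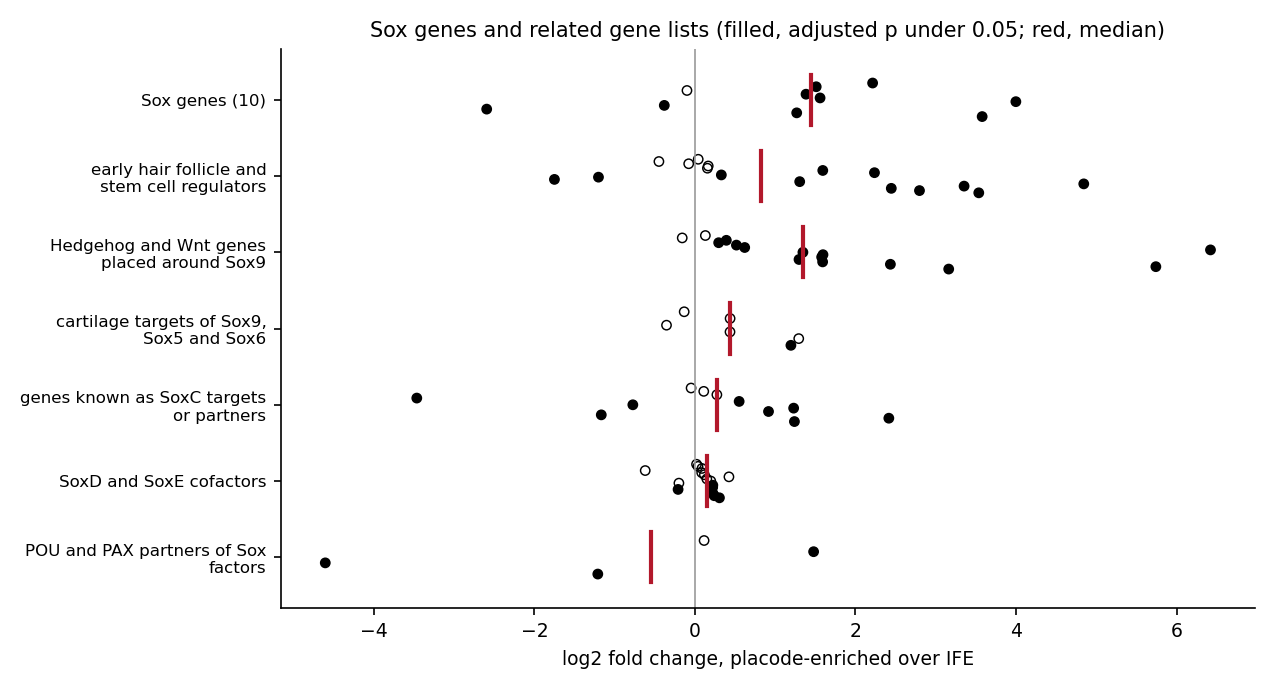
Log2 fold changes of placode-enriched over IFE (horizontal axis) for the tested members of the Sox genes and 6 related lists, 1 point per gene, filled where the adjusted p is under 0.05. Red bars give medians, at 1.45 for the Sox genes, 1.35 for the Hedgehog and Wnt genes and -0.55 for the POU and PAX partners.

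By root mean square distance between the log2 differences of the 7 pairs, among 9387 named genes with at least 10 CPM in the higher fraction, the closest gene to Sox4 was Bmp1 (0.0853), followed by Traf4 (0.114). Sox9 was closest to Trp73 (0.208) and Hpca (0.225), Sox13 to Lbh (0.129) and Pxdn (0.199), Sox21 to Tmem151b (0.265) and Trib1 (0.314), and Sox6 to Gtf2h1 (0.103) and Fnip2 (0.111). The gene closest to Sox11 was Sox13 itself (0.208), with Meis1 next (0.210), and Sox12 was closest to Raver1 (0.115) and B3gat3 (0.120). The genes with few reads had larger distances to their nearest genes, which were Ccdc85a (0.778) and Csgalnact1 (0.805) for Sox2, Ces2g (1.22) and Itga4 (1.37) for Sox5, and Ccdc85a (1.39) and Rnf182 (1.42) for Sox7. These distances are a description over 7 pairs, with no test.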

How the data were processed

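RNA of 14 sorted pools was sequenced. Per the labels' protocols, the epithelium was separated with Dispase II, cells were sorted on MAdCAM-1, and total RNA was made into Ovation SoLo libraries. The authors deposited whole-number read counts for Ensembl genes, not normalized. Per the submitters' processing notes, the tools were STAR (version listed as 1.5), HTSeq, Trimmomatic, bcl2fastq 2.17.1.14, MultiQC and FastQC, and the builds GRCm38 and mm10. Annotation release, strand setting and handling of duplicates were not given in the sources used here.

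Symbols, coordinates and exon lengths came from GENCODE M21 (GRCm38), which matched 25949 of 26252 identifiers (the 303 others held 0.436% of counts). No 50-base stretch of Sox2, Sox6, Sox9, Sox11, Sox12 or Sox13 transcripts occurred in another gene. Counts were tested with edgeR 4.0.16 (R 4.3.3): filterByExpr, TMM, robust quasi-likelihood F tests with the pair as a block, and Benjamini-Hochberg adjustment over 15382 genes at 0.05. An approximate SE was taken as the unshrunk coefficient over the root of its F value. CPM use TMM-scaled library sizes, and pair differences a prior count of 2. The prior count of the fit was 0.125. Contrasts between Sox genes of one group were tested by exact sign flips (two-sided, 7 pairs). The series' design text names the pairs, and the libraries of a pair share a title code. Within pairs, the libraries' deviations from their fraction's mean had an average correlation of 0.0548 (-0.132 to 0.195). The labels do not say whether pools were collected on separate days, so each p-value reflects no more than the spread among these pools.

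Alternatives were a fit without the pair block, other scalings (size factors of DESeq2, upper quartiles, library size), no filter or 1 CPM in at least 7 libraries, limma-voom (limma 3.58.1), DESeq2 1.42.0, non-robust dispersion, leaving out pairs in turn, the 2 code sets apart, a threshold of 0.01 and the longest transcript as length. The fits were tested on simulated data. The 10 genes, the lists and the contrasts were chosen with earlier results of these data known, and the promoter motifs after the sequences were seen. The text names the 10 genes, Madcam1, up to 4 passing genes per list by p and list members on which a count rests. Col2a1, Atoh1, Krt20, Pou4f3, Insm1, Isl1, Cdh5, Tek, Kdr and Tie1 were named after their values were seen. A gene that this rule names is not reported here. The 2 nearest genes are named for each Sox gene. Of other Sox genes, 8 were matched and 3 were tested.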

Additional observations from a re-analysis of the deposited data

Results flagged for a closer look

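Of 30 sets of 7 values (CPM of 10 Sox genes in each fraction and their pair differences), 4 held a library far from the nearest other by Dixon's ratio, where chance gives about 1 in 20. Sox7 stood at 3.71 CPM in the placode-enriched library of pair 5, and the next highest was 1.39 CPM. Sox11 stood at 81.6 CPM in the placode-enriched library of pair 1, and the next highest was 59.4 CPM. Sox21 stood at 17.1 CPM in the IFE library of pair 7, and the next highest was 11.98 CPM. Sox6 stood at 95.3 CPM in the IFE library of pair 1, and the next lowest was 111 CPM. With 1 pair left out the Sox7 log2 fold change ranged from 3.45 without pair 5 (edgeR adjusted p = 0.00902) to 4.64 without pair 6 (0.00555), and the calls for the other 3 genes held with any of these pairs left out.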

How the results depend on the processing

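Of 188 values of single Sox genes under an alternative, 182 kept their direction and their side of the threshold. All 7 higher calls held in every fit of the full data that tested them, with the pair as a replicate block or without it (7 higher and 2 lower members in both), under each scaling, with DESeq2 and limma-voom, and with any 1 pair left out. For Sox2 and Sox7, which passed the filter only through the placode-enriched fraction, this describes the fits and supports nothing further. Sox5 and Sox7 were not tested under the stricter filter, which left 1 lower member. The 3 pairs coded 27-7 alone gave 1226 higher and 1105 lower genes, 1 lower member, and lost Sox5 (-1.57) and Sox7 (4.82). The 4 other pairs alone gave 1547 higher and 1540 lower genes, 1 lower member, and lost Sox6 (-0.33). With a threshold of 0.01, 1 lower member was left, since Sox5 (-2.59) had an adjusted p of 0.0159. Fewer pairs were fitted in both sets alone, and other causes were not tested. The uncalled Sox12 value changed sign in the 27-7 pairs (0.13), and ranged from -0.24 to 0.0143 with 1 pair left out, positive without pair 3. The Sox5 value ranged from -3.73 to -1.57 over all alternatives. The median log2 fold change of all genes stood between -0.02 and 0.01 under the 4 scalings. Depth limits Sox2, Sox5 and Sox7, whose IFE or placode-enriched libraries held as few as 0 or 1 reads, and intervals of read counts would cover counting error only.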

Other observations

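Among Sox genes outside the 10, Sox14, a group B2 gene like Sox21, had 79 reads over 6 of 7 placode-enriched libraries and 10 reads over 3 of 7 IFE libraries, at most 26 in any library. It was too low to be tested. Sox15, a group G gene, averaged 8.81 ± 2.95 CPM in placode-enriched libraries, against 10.4 ± 3.11 CPM in IFE libraries (SD, n = 7 each) and did not pass (log2 fold change -0.26; edgeR adjusted p = 0.442). Sox30, a gene known from the testis, averaged 0.0966 and 0.441 CPM in the same order and missed the threshold (edgeR adjusted p = 0.0524; lower in 6 of 7 pairs). Sox1, Sox8, Sox17 and Sox18 had at most 18 reads in any library. Sox6os, which lies on the opposite strand within Sox6 without sharing an exon, averaged 0.497 and 0.502 CPM in placode-enriched libraries, against IFE libraries and did not pass.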
